A study of Mus musculus with 24 samples.

Results

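The 8 genes described here encode the subunits of troponin in slow, fast and cardiac muscle, and they were taken by gene name from the 56941 genes listed for every library. The slow genes are Tnnt1, Tnni1 and Tnnc1, the fast genes are Tnnt3, Tnni2 and Tnnc2, and the cardiac genes are Tnnt2 and Tnni3. Tnnc1 also serves cardiac muscle, so only troponin T and troponin I have a separate cardiac gene here. Each name matched 1 row, and all 8 genes were among the 13315 that passed the filter on low counts.

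The tissues were muscle sheets grown from C2C12, a mouse myoblast line that fuses into contracting myotubes, on a grooved fibrin hydrogel. All tissues, controls included, carried the ChR2::tdTomato genotype, a light-gated ion channel joined to a red fluorescent protein, and were differentiated in medium with horse serum and IGF-1. The control tissues received no light training, and the other groups received blue light pulses at 1, 4 or 10 Hz in a daily session of 60 min, with 6 libraries in each of the 4 conditions. Spontaneous contraction was seen in every condition, per the study's text. All libraries came from 1 engineered line, and the study's methods call the 6 per condition biological replicates grown in multiwell plates, so the p-values measure the spread between cultures of that line.

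Troponin is the calcium switch of the thin filament of striated muscle. Troponin C binds calcium, troponin I holds actin and myosin apart at rest, and troponin T ties the complex to tropomyosin. Slow fibers, fast fibers and the heart use different genes for the subunits, which tunes how strongly force depends on calcium, and embryonic skeletal muscle uses the cardiac troponin T gene Tnnt2 for a time. Isoform choice is therefore widely read as a sign of fiber type and of maturity.

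The troponin T and I genes lie in pairs, each pair with 1 troponin T and 1 troponin I gene on the same strand. In GRCm39 the slow troponin T gene Tnnt1 (chr7:4507567-4519381, minus strand) and the cardiac troponin I gene Tnni3 (chr7:4521300-4527228, minus strand) are 1918 bases apart with no protein-coding gene between them. The slow troponin I gene Tnni1 (chr1:135707172-135738727, plus strand) lies 25010 bases from the cardiac troponin T gene Tnnt2 (chr1:135763738-135780315, plus strand), with Lad1 in between. The fast pair on chromosome 7, Tnni2 (chr7:141995545-141998147) and Tnnt3 (chr7:142048605-142070280), both on the plus strand, is 50457 bases apart with Lsp1 in between. The troponin C genes stand alone, Tnnc1 at chr14:30930232-30933708 on the plus strand and Tnnc2 at chr2:164619075-164621887 on the minus strand.

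The start sites of 6 of the 8 genes have a promoter in the RefSeq table of GRCm38.p6, and 1 window of 250 bases before the start is printed for each, because most of these genes moved together across libraries. Capitals mark 2 motifs searched on both strands, the E-box CANNTG, which basic helix-loop-helix factors such as MyoD and myogenin bind, and the MCAT motif CATTCC, which TEAD factors bind and which reads as its reverse complement where it lies on the other strand. No match of one motif overlapped a match of the other in these windows.
Tnnt1, slow troponin T, chr7:4515976-4516225, minus strand: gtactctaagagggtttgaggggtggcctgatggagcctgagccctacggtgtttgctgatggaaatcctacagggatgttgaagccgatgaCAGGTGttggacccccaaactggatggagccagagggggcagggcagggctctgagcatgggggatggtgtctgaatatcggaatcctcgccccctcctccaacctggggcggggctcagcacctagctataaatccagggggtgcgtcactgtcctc
Tnni1, slow troponin I, chr1:135799171-135799420, plus strand: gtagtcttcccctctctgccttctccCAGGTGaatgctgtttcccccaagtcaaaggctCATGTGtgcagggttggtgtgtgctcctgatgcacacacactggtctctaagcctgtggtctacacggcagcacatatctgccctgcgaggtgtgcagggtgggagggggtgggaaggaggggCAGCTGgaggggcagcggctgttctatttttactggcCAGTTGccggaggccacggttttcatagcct
Tnnc1, slow and cardiac troponin C, chr14:31208062-31208311, plus strand: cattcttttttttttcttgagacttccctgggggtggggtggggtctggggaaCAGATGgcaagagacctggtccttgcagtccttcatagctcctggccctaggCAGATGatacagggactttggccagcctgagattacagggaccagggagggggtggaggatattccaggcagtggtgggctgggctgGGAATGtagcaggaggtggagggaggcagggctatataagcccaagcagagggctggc
Tnnc2, fast troponin C, chr2:164779735-164779984, minus strand: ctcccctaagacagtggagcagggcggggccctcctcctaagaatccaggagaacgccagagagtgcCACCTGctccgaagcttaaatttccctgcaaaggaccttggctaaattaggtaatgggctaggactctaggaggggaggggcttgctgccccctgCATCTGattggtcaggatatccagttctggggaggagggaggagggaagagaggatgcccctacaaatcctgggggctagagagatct
Tnnt2, cardiac troponin T, chr1:135836084-135836333, plus strand: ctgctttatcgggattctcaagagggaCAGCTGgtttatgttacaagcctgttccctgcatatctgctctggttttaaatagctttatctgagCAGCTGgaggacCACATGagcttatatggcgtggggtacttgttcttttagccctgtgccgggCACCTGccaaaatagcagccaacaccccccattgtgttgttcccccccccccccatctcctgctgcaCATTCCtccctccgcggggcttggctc
Tnni3, cardiac troponin I, chr7:4522529-4522778, minus strand: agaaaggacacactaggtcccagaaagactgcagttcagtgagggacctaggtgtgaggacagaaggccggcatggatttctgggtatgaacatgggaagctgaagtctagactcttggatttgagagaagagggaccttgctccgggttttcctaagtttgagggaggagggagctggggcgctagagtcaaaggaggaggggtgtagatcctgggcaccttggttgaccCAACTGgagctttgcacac

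All 6 windows held an E-box, with 4 matches in Tnni1 and 4 in Tnnt2, 2 in Tnnc1 and 2 in Tnnc2, and 1 in Tnnt1 and 1 in Tnni3. A second start site in the table gave Tnni1 another window with 2 E-boxes and Tnnt2 another with 1, neither with the MCAT letters. An E-box stood in 66.2% of the 32851 windows of this length, so its presence does not set these genes apart. The MCAT letters stood in the printed window of Tnnt2, 21 bases before the start, and in Tnnc1, 52 bases before it, against 12.6% of all windows. The barely expressed Tnni3 and the abundant Tnnt1 each held a single E-box and no MCAT letters, but they differed in other motifs searched. In Tnnt1 the letters TATAAA stood 24 bases before the start, and GGGCGG, the GC box, 45 bases before it. Tnni3 held neither, and the printed windows of the abundant Tnni1, Tnnt2 and Tnnc1 held neither as well. Tnnc2 held no TATAAA, and its GGGCGG stood 223 bases before the start. TATAAA and GGGCGG stood in 12.4% and 32.7% of all windows.

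The libraries held 8052369 to 18159144 estimated counts, and the troponin genes took 0.434 to 0.831% of them. Levels are given as CPM (counts scaled to the library size by TMM), and, where genes are compared with each other, as TPM (transcript abundances, divided by length and scaled to a fixed sum). The replicates labeled 4 and 6 at 1 Hz stood apart, with 1094 and 922 CPM of Tnnc2 where the other 1 Hz libraries reached at most 581. They also had 6.05 and 7.27% of TPM from mitochondrial genes, against 2.62 to 3.21% in the other 1 Hz libraries. Their counts, 18159144 and 13227360, were the highest at 1 Hz. The part of composition and depth in their troponin values was not tested. The skeletal muscle label held, since 12 of 12 myotube markers passed the filter and summed to 9739 to 15427 TPM. Markers of smooth muscle summed to 1187 to 2136 TPM, those of fibroblasts to 292 to 560, and those of blood and macrophages to 59.1 to 106. The smooth muscle list shares Des with the myotube list and Lmod1 with the list of thin filament partners, so its sum is not specific to smooth muscle. Cardiomyocyte markers summed to at most 95.2 TPM, and the adipocyte and endothelial lists to at most 1.34 and 0.677 TPM. In bulk tissue, fewer myotubes and less troponin RNA per myotube cannot be told apart.

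Per length, the control tissues held most of the fast troponin T gene Tnnt3 (2595 ± 306 TPM, SD, n = 6) and the slow troponin C gene Tnnc1 (2594 ± 224). Tnni2 (1950 ± 155), Tnni1 (1853 ± 175) and Tnnc2 (1701 ± 179) followed, then Tnnt2 (1255 ± 84.9) and Tnnt1 (867 ± 114). The ranges of Tnnt3 and Tnnc1 overlapped, as did those of Tnni2, Tnni1 and Tnnc2, while the lowest Tnnc2 library (1472 TPM) was above the highest Tnnt2 library (1378 TPM). Tnni3, the adult cardiac troponin I gene, reached only 2.56 ± 0.637 TPM, from 4 to 23 estimated counts per library over all conditions. Cardiac troponin T was thus expressed at a level between the slow and fast genes of the same subunit while cardiac troponin I was nearly absent.

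**Figure D1:**
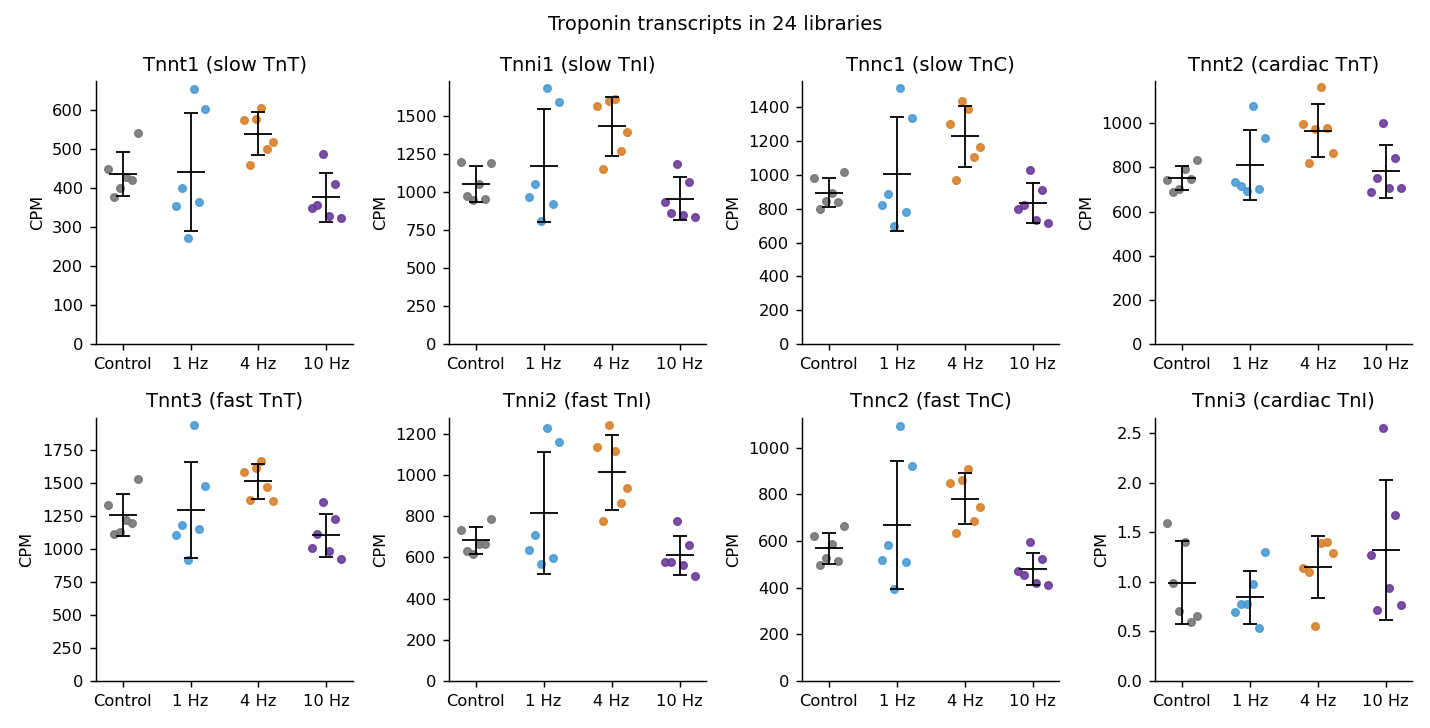
CPM (TMM scaled, axis from 0) of each troponin gene in the 24 libraries, by condition; points are libraries, and the bar is the mean with its SD. The 4 Hz libraries of the fast troponin I gene Tnni2 run from 774 to 1241 CPM against 617 to 786 in controls, and 2 of the 1 Hz libraries lie above the rest of that condition.

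Troponin T anchors the complex. Tnnt1 was at 377 CPM in the lowest control library, 424 in the median and 540 in the highest, and at 458, 546 and 605 CPM at 4 Hz. At 1 Hz it ran from 271 through 382 to 654 CPM, and at 10 Hz from 323 through 352 to 488. Only 3 of 6 libraries at 4 Hz were above all controls, and the log2 fold change of 0.31 ± 0.16 (SE) had an adjusted p of 0.106 in edgeR's quasi-likelihood test with Benjamini-Hochberg adjustment over all genes, which stands behind every adjusted p of a single gene below. The fast gene Tnnt3 was at 1117, 1210 and 1534 CPM (lowest, median and highest) in controls, 915, 1164 and 1944 at 1 Hz, 1364, 1527 and 1671 at 4 Hz, with 922, 1060 and 1357 at 10 Hz. It also overlapped controls at 4 Hz (0.27 ± 0.13, adjusted p = 0.0891), but all 6 of its 10 Hz libraries lay below all 4 Hz libraries. The cardiac gene Tnnt2 was at 687, 746 and 832 CPM in controls, 692, 726 and 1078 at 1 Hz, 818, 975 and 1165 at 4 Hz, with 688, 731 and 1000 at 10 Hz. Tnnt2 was the troponin T gene that passed the test at 4 Hz, 1.29-fold above control (log2 0.36 ± 0.11, adjusted p = 0.00765), with 5 of 6 libraries above all controls.

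Troponin I blocks the actin site at rest. The slow gene Tnni1 was at 950 CPM in the lowest control library, 1015 in the median and 1201 in the highest, with 811, 1014 and 1688 at 1 Hz, 1153, 1482 and 1612 at 4 Hz, with 837, 899 and 1190 at 10 Hz. Its level at 4 Hz was 1.36-fold that of control (log2 0.44 ± 0.15, adjusted p = 0.0146), and 5 of 6 libraries were above all controls. The fast gene Tnni2 was at 617, 665 and 786 CPM in controls, 567, 671 and 1228 at 1 Hz, 774, 1028 and 1241 at 4 Hz, with 509, 577 and 778 at 10 Hz. It had the largest fold change of the 8 genes at 4 Hz, 1.48-fold above control (log2 0.57 ± 0.17, adjusted p = 0.00689), again with 5 of 6 libraries above all controls. The cardiac gene Tnni3 stayed between 0.536 and 2.56 CPM in all 24 libraries, and its log2 fold change at 4 Hz was 0.21 ± 0.31 (adjusted p = 0.590). Its 95% interval, -0.44 to 0.86, held the changes of all the other troponins, so a change of their size in Tnni3 was not detectable at 23 counts or fewer per library.

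Troponin C binds the calcium. The slow and cardiac gene Tnnc1 was at 798 CPM in the lowest control library, 869 in the median and 1015 in the highest, with 696, 855 and 1512 at 1 Hz, 971, 1232 and 1437 at 4 Hz, with 718, 811 and 1029 at 10 Hz. At 4 Hz it was 1.37-fold above control (log2 0.46 ± 0.15, adjusted p = 0.0136). The fast gene Tnnc2 was at 497, 557 and 665 CPM in controls, 394, 549 and 1094 at 1 Hz, 634, 797 and 909 at 4 Hz, with 413, 464 and 596 at 10 Hz. Its fold at 4 Hz was likewise 1.37 (log2 0.46 ± 0.18, adjusted p = 0.0355), with 5 of 6 libraries above all controls for each troponin C gene. The call of Tnnc2 was the least stable of the 5, since it held in 5 of the 12 fits that left out 1 library, whereas those of Tnnc1, Tnni1, Tnni2 and Tnnt2 held in 12 of 12. It was lost without any of control replicates 2, 3, 4 and 5 or 4 Hz replicates 1, 3 and 4, at 0.38 to 0.45. Among those libraries, 4 Hz replicates 1, 3 and 4 stood apart in composition, replicates 1 and 3 with 0.876 and 12.6% of TPM from mitochondrial genes against 2.56 to 5.03% in controls, and replicate 4 with 20436 TPM of the ribosomal RNA gene Rn18s-rs5 against at most 6652 in controls. Replicate 6, without which Tnnc2 stayed called, had 7.22% mitochondrial TPM. Their part in the call of Tnnc2 was not tested beyond leaving each out. Tnnt3 passed without control replicate 6 (0.33, adjusted p = 0.0435).

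Training at 4 Hz thus came with more RNA of 5 of 8 troponin genes on the count scale, at least 1 from each subunit and from each of the slow, fast and cardiac groups. Of all 13315 genes tested, 27.5% were called higher in that comparison, and 51.4% were called in either direction, so the troponins moved amid a broad change. The median log2 fold change of the 8 genes was 0.40, against 0.06 over all genes. For no troponin were all 6 libraries at 4 Hz beyond the control range, which 27.6% of all genes reached. With the additional demand of an absolute log2 fold change over 0.5, only Tnni2 remained, against 25.1% of all genes.

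Neither of the other frequencies gave a call against control. At 1 Hz edgeR called 0 of 8, with 0 at an unadjusted p under 0.05 and 0 in DESeq2 or limma, while 37.3% of all genes were called. The log2 fold changes there ran from -0.23 (Tnni3) to 0.26 (Tnni2), and the 95% interval of Tnni2 reached from -0.09 to 0.60, so a change as large as that at 4 Hz lay within it. Without 1 Hz replicate 4 or 6 Tnni2 was at 0.08 or 0.10, and Tnni3 ran from -0.42 to -0.06 with 1 library left out. At 10 Hz edgeR again called 0 of 8, with 0 at an unadjusted p under 0.05 and 0 in DESeq2 or limma, where 0.0376% of all genes were called. All but Tnnt2 of the 7 abundant genes had a log2 fold change below 0 at 10 Hz, from -0.25 ± 0.18 (Tnnc2) to -0.10 ± 0.15 (Tnnc1), while Tnnt2 was at 0.06 ± 0.11, all with an adjusted p of 0.802 or more.

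Set against each other, the frequencies differed between 4 and 10 Hz. At 10 Hz 7 of 8 troponin genes were lower than at 4 Hz, where 24.4% of all genes were called lower. The fast genes Tnni2 (log2 -0.73 ± 0.17, adjusted p = 0.00128) and Tnnc2 (-0.70 ± 0.18, adjusted p = 0.00299) differed most, to 0.604 and 0.614 of their 4 Hz level. The slow genes Tnni1, Tnnc1 and Tnnt1 fell by 0.58, 0.56 and 0.52 on the log2 scale, Tnnt3 fell by 0.46, and Tnnt2 changed least of the called genes, at -0.30 ± 0.11 (adjusted p = 0.0254). The call of Tnnt2 was lost without 4 Hz replicate 4 or any of 10 Hz replicates 1, 2, 4 and 6, at -0.23 to -0.28. Tnnc2 and Tnnt3 had all 6 libraries at 10 Hz below all those at 4 Hz, which 18.9% of all genes reached in either direction. This comparison and that of 4 Hz with control share the 4 Hz libraries.

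Between 4 and 1 Hz edgeR called 0 of 8 genes and 0% of all genes, and 1 troponin, Tnnt2, had an unadjusted p under 0.05, with 0 calls in DESeq2 or limma. Between 10 and 1 Hz 1 of 8 was called lower, Tnnc2 (log2 -0.48 ± 0.18, adjusted p = 0.0468), where 13.1% of all genes were called lower. That call held in 5 of the 12 fits without 1 library. It was lost without 1 Hz replicate 4 and without 1 Hz replicate 6, the libraries that stood apart, at -0.27 and -0.35, as well as without any of 10 Hz replicates 1, 2, 4, 5 and 6. Tnni2 (-0.42 ± 0.17, adjusted p = 0.0631) passed without any of 1 Hz replicates 1, 3 and 5 or 10 Hz replicate 3, at -0.48 to -0.49.

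**Figure D2:**
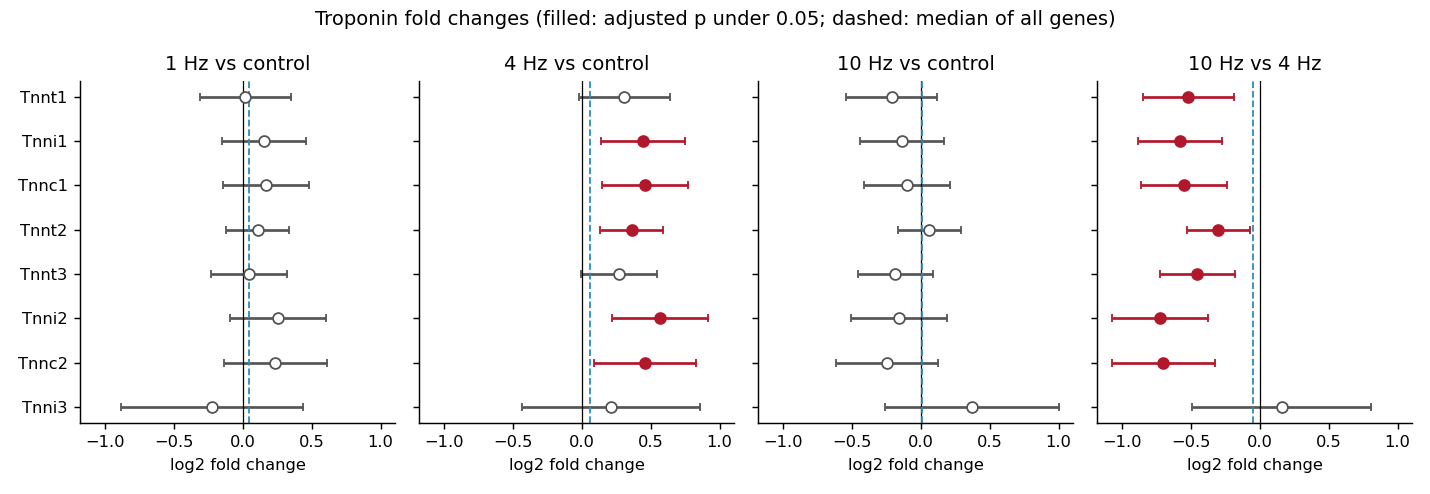
Log2 fold change (x axis) of each troponin gene (rows) in 4 comparisons, with its 95% interval; filled red points have an adjusted p under 0.05, and the dashed line is the median of all genes tested. At 4 Hz 5 genes are called above control, at 1 and 10 Hz none is, and 7 are lower at 10 Hz than at 4 Hz.

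Transcript length moved with the change at 1 and 4 Hz, and troponin transcripts are short. Their canonical transcripts measured 721 bases (Tnnc1), 732 (Tnni2), 752 (Tnnc2), 916 (Tnni3), 1100 (Tnnt1), 1105 (Tnni1), 1754 (Tnnt3) and 1776 (Tnnt2). Over all genes at 4 Hz, the median log2 fold change was 0.46 for 1110 genes under 1000 bases, 0.23 for 2365 genes from 1000 to 2000, 0.05 for 4798 genes from 2000 to 4000, and -0.09 for 5028 longer genes. The values of Tnnc1 (0.46) and Tnnc2 (0.46) were at the median of their length class, Tnni3 (0.21) was below it, Tnni2 (0.57) was above it by less than its SE, and the 4 genes from 1000 to 2000 bases lay at 0.27 to 0.44 against 0.23. At 1 Hz the medians of the same classes were 0.31, 0.16, 0.03 and -0.07, and all 8 troponins lay below the median of their class, Tnni2 (0.26), Tnnc2 (0.24) and Tnnc1 (0.17) among them. At 10 Hz against control the classes under 1000 and from 1000 to 2000 bases had medians of 0.03 and 0.02. All troponins but Tnnt2 and Tnni3 lay below the median of their class there. Between 10 and 4 Hz the shortest class had a median of -0.41, and Tnni2 (-0.73), Tnnc2 (-0.70) and Tnnc1 (-0.56) lay further down, while Tnni3 (0.16) lay above it. The class from 1000 to 2000 bases had a median of -0.21, with Tnnt2 (-0.30), Tnnt3 (-0.46), Tnnt1 (-0.52) and Tnni1 (-0.58) below it. The part of transcript length in the troponin values was not tested.

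**Figure D3:**
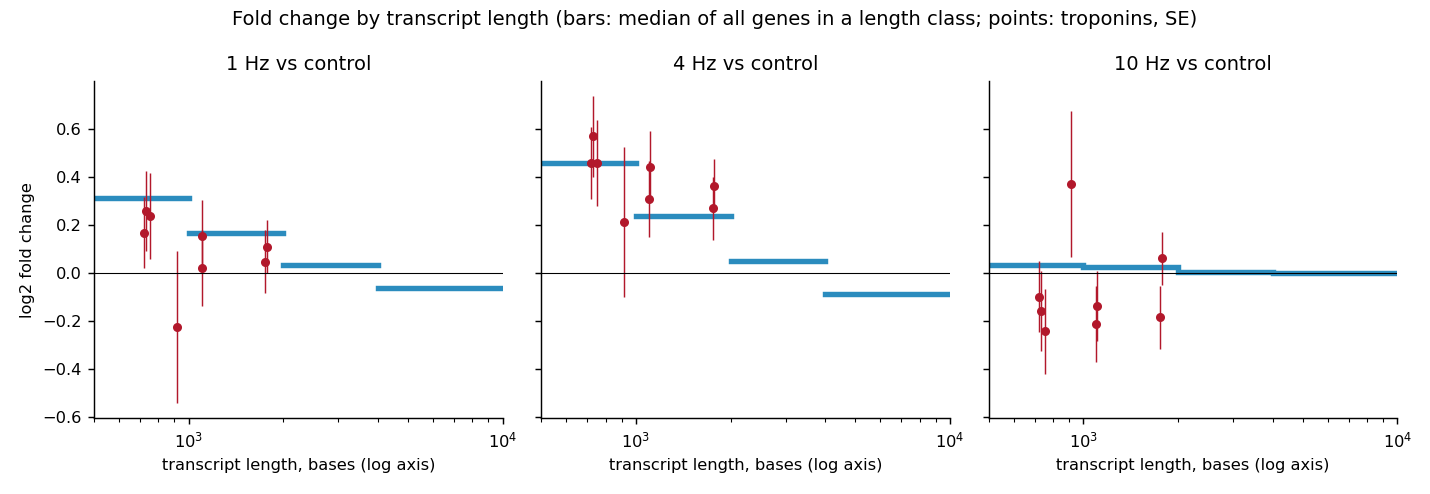
Log2 fold change against control (y axis) by length of the canonical transcript in bases (x axis, log scale) at 1, 4 and 10 Hz; blue bars are the medians of all genes in 4 length classes, and red points are the 8 troponins with their SE. At 4 Hz the medians go from 0.46 in the shortest to -0.09 in the longest class, and at 10 Hz they stay near 0.

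The call at 4 Hz also rested on the count scale. On log2(TPM + 1), which scales by summed transcripts, limma called 0 of 8 troponins above control, where it called 41.7% of 13422 genes in either direction. The median of all genes, over transcripts of all lengths, was itself -0.21 there, against 0.06 on counts. Troponin values relative to that median are a description without a test. Relative to that median Tnni2 stood at 0.44, Tnnc2 and Tnnc1 at 0.33, Tnni1 at 0.31, Tnnt2 at 0.24, Tnnt1 at 0.18 and Tnnt3 at 0.16, whereas the values of Tnnt1 (-0.03) and Tnnt3 (-0.05) before that step were below 0. Between 10 and 4 Hz, limma on this scale still called Tnni2 (-0.41, adjusted p = 0.00216), Tnnc2 (-0.38, adjusted p = 0.0133), Tnni1 (-0.27, adjusted p = 0.0236) and Tnnc1 (-0.23, adjusted p = 0.0445) lower. The TPM of Rn18s-rs5 had a median of 2594 without light, 8071 at 1 Hz, 4588 at 4 Hz and 2961 at 10 Hz, and mitochondrial genes took 0.876 to 12.6% of TPM at 4 Hz, 2.62 to 7.27% at 1 Hz and 2.78 to 4.63% at 10 Hz. Their part in the troponin values was not tested, and some low-input libraries were made by ribodepletion in place of poly(A) selection, which the labels do not assign to samples.

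Isoform shares set 2 genes of a subunit against each other within a library, so the scaling of the library cancels. The slow share of troponin C, Tnnc1 in the sum of Tnnc1 and Tnnc2, was 59.4, 60.6 and 61.2% (lowest, median and highest) in controls, 57.3, 59.8 and 63.0% at 1 Hz, 59.7, 60.0 and 61.7% at 4 Hz, and 62.0, 62.7 and 63.7% at 10 Hz. All 6 libraries at 10 Hz were above all controls and above all 4 Hz libraries. The mean was 62.8% ± 0.534 (SD, n = 6) at 10 Hz against 60.4% ± 0.710 in controls, a difference of 2.35 percentage points (two-sided exact permutation test, p = 0.00216, adjusted p = 0.0173 over 24 tests). That p is the smallest that 6 libraries against 6 can give. The difference was 2.43 points against 4 Hz (exact permutation, adjusted p = 0.0173) and 2.96 points against 1 Hz (exact permutation, adjusted p = 0.0445). The last was lost without any of 1 Hz replicates 1, 2, 4, 5 and 6.

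The cardiac share of troponin T, Tnnt2 in the sum of Tnnt1, Tnnt2 and Tnnt3, moved at 10 Hz too. It was 24.5, 27.2 and 28.2% in controls, 25.4, 27.1 and 32.0% at 1 Hz, 26.5, 27.3 and 29.6% at 4 Hz, and 29.4, 30.0 and 31.8% at 10 Hz. All 6 libraries at 10 Hz were again above all controls, with a mean of 30.3% ± 0.975 against 26.7% ± 1.37, a difference of 3.57 points (exact permutation, adjusted p = 0.0173). It was 2.58 points above the 4 Hz libraries (exact permutation, adjusted p = 0.0346), a call lost without 4 Hz replicate 3, and 2.35 points above those at 1 Hz (exact permutation, adjusted p = 0.140), where it passed without 1 Hz replicate 3 (3.17 points, exact permutation, adjusted p = 0.0130). The differences at 1 and 4 Hz against control, 1.23 and 0.99 points, did not pass, and fell to 0.405 without 1 Hz replicate 3 and to 0.545 without control replicate 6. Hence at 10 Hz the mix of troponin T and C transcripts differed from control although no single troponin gene was called there. Tnnt2 has the longest transcript of the troponin T genes, and the part of length in its share was not tested.

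The slow share of troponin I, Tnni1 in the sum of Tnni1 and Tnni2, differed from control at 4 Hz instead. It was 47.1, 48.5 and 50.5% in controls, 45.7, 47.4 and 48.6% at 1 Hz, 43.9, 46.9 and 47.9% at 4 Hz, and 47.8, 48.8 and 50.4% at 10 Hz, so the ranges at 4 Hz and in controls overlapped. The mean at 4 Hz was 46.5% ± 1.42 against 48.7% ± 1.16, a difference of -2.17 points with an SE of 0.750 (exact permutation, adjusted p = 0.0346), and 5 of 6 libraries at 10 Hz were above all those at 4 Hz (2.48 points, exact permutation, adjusted p = 0.0260). The difference from control lost its call without any of control replicates 1, 2, 3, 4 and 6 or 4 Hz replicate 3, at -1.66 to -2.26 points, and with estimated counts in place of TPM (-1.92 points, exact permutation, adjusted p = 0.0594). That from 10 Hz lost its call without 4 Hz replicate 3, at 1.97 points (exact permutation, adjusted p = 0.0519). The 1 Hz libraries differed from control by -1.49 points (exact permutation, adjusted p = 0.140). The 4 Hz libraries differed from those at 1 Hz by -0.69 points (exact permutation, adjusted p = 0.701), so this share did not tell 4 Hz from 1 Hz. Tnni1 has the longer transcript of this pair, and the part of length in the share was not tested.

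The slow share of troponin T, Tnnt1 in the sum of Tnnt1 and Tnnt3, passed in 0 of 6 comparisons, and 0 of 6 had an unadjusted exact permutation p under 0.05. It was 24.01, 25.3 and 25.7% in controls, 22.3, 24.02 and 28.3% at 1 Hz, 24.3, 25.6 and 26.3% at 4 Hz, and 24.03, 24.8 and 26.8% at 10 Hz. The mean difference from control was -0.60 points at 1 Hz with an SE of 0.898, 0.37 at 4 Hz with an SE of 0.476, and 0.05 at 10 Hz with an SE of 0.514. Between the slow and fast genes, with Tnnt2 and Tnni3 left out, troponin T thus stayed mostly fast in all 4 conditions. Troponin I stayed near an even split and troponin C mostly slow.

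**Figure D4:**
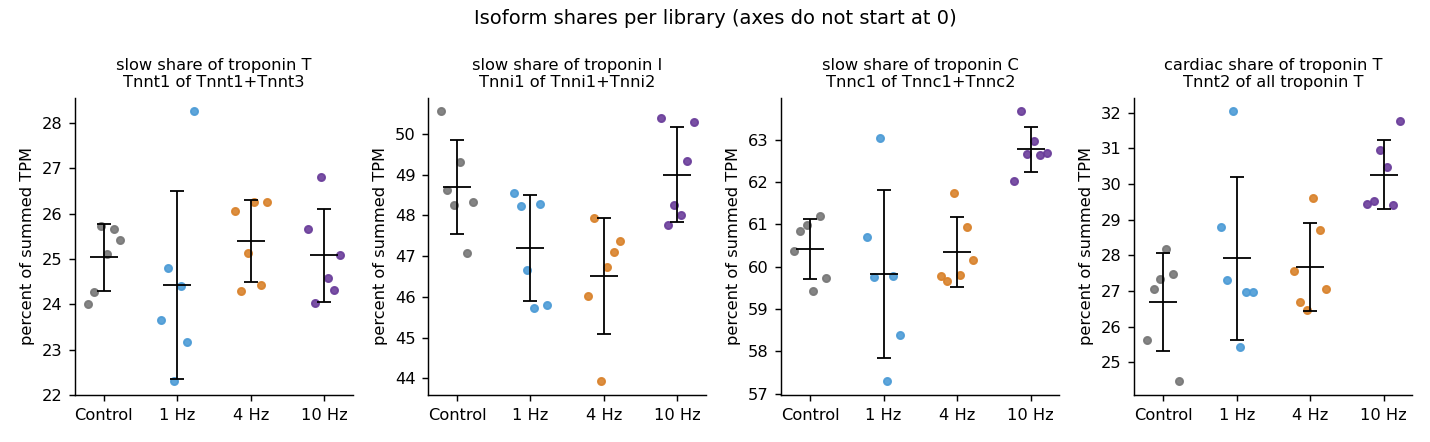
Isoform shares in percent of summed TPM (y axes do not start at 0) by condition; points are libraries, and the bar is the mean with its SD. The 10 Hz libraries hold 62.0 to 63.7% slow troponin C and 29.4 to 31.8% cardiac troponin T, above all controls in both.

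The summed subunits were of similar size on the TPM scale. Summed troponin T per summed troponin I had a median of 1.24 without light (range 1.16 to 1.30) and 1.16 at 1 Hz (0.945 to 1.29). It was 1.06 at 4 Hz (0.960 to 1.21) and 1.26 at 10 Hz (1.20 to 1.36). Summed troponin C per summed troponin I ran from 1.04 to 1.19 over all 24 libraries. The slow genes together made up 45.3 to 46.5% of slow plus fast TPM in controls, 44.5 to 46.4% at 1 Hz, 45.3 to 46.7% at 4 Hz, and 46.6 to 47.8% at 10 Hz. These sums are a description without a test.

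The 7 abundant troponin genes rose and fell together from library to library. Over the 24 libraries, Pearson's r of log2 CPM between any 2 of them was 0.86 to 0.99, and Tnni3 reached 0.23 to 0.43 with each of the others. By Pearson's r Tnni1 and Tnnc1 were most alike (0.99), by Spearman's rho Tnnt1 and Tnnt3 (0.98), and by r of the deviations from the condition means Tnnc1 and Tnnc2 (0.99). The points share libraries and their depth, so these values describe likeness and carry no p. Among all genes tested, those most like Tnnt1 were Tnnt3 and Tnnc2, those most like Tnnt3 were Tnnt1 and Tpm1, a tropomyosin, and those most like Tnni1 were Tnnc1 and Tnni2. Tnni2 was most like Tnnc1 and Tnni1, Tnnc1 most like Tnni1 and Tnni2, and Tnnc2 most like Tnni1 and Myl1, a fast myosin light chain. The 2 genes most like Tnnt2 were no troponins, namely Myl4, an embryonic and atrial myosin light chain (r = 0.95), and Fth1, the ferritin heavy chain (r = 0.95). Tnni3 was most like Hspbp1 (r = 0.72), which lies 136283 bases from it on chromosome 7, and Itgb1bp2 (r = 0.69). The gene pairs on the chromosomes were thus not the pairs most alike in level.

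**Figure D5:**
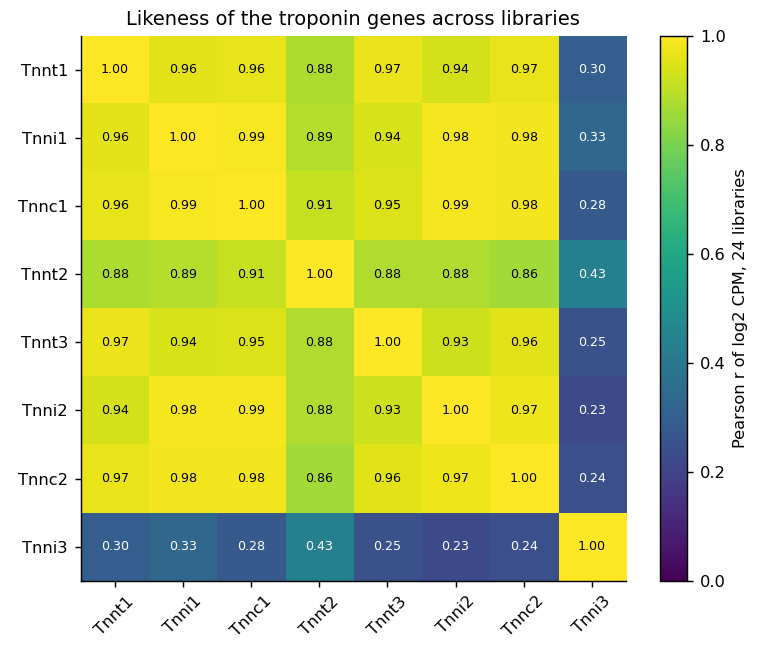
Pearson's r of log2 CPM over the 24 libraries for each pair of troponin genes (rows and columns, color scale from 0 to 1). All pairs of the 7 abundant genes are at 0.86 or above, and the pairs with Tnni3 are at 0.43 or below.

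Some of the genes overlap another gene in the files. Tnnc2 shares 616 exon bases with Ube2c, a cell-cycle ubiquitin carrier on the opposite strand, and Tnnt3 shares 221 with Prr33, also opposite. Tnni3 shares 394 exon bases with Dnaaf3 on the same strand, and Tnnc1 lies against Nisch with no shared exon base. Ube2c had a mean of 5.51 ± 0.699 CPM in controls against 569 ± 67.0 of Tnnc2, and at 4 Hz Ube2c fell (log2 -0.69 ± 0.21, adjusted p = 0.00783) where Tnnc2 rose. Prr33 was at most at 1.59 CPM, and Dnaaf3 reached 0.347 CPM against 0.536 in the lowest Tnni3 library. The study's methods name a directional library kit, but whether the counting used the strand is not given in the sources used here, so how reads in the opposite-strand overlaps were assigned is unknown. Reads that Tnni3 and Dnaaf3 share on 1 strand cannot be told apart.

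The lists of related genes are set here beside all genes tested, of which 27.5% were called higher and 23.9% lower at 4 Hz against control, and 21.9% higher and 24.4% lower at 10 Hz against 4 Hz. Of 15 tested partners of troponin on the thin filament, namely actins, tropomyosins, leiomodins and related proteins, 1 was called higher at 4 Hz and 0 lower, with a median log2 fold change of 0.17, and the called gene was Lmod2, which lengthens thin filaments (0.61 ± 0.12, adjusted p = 0.000221). When 10 Hz was set against 4 Hz, 10 of the 15 were lower, against 24.4% of all genes. Of 15 slow fiber genes 7 were higher at 4 Hz and 0 lower, led by Myh7b, a slow-type myosin (0.84 ± 0.11, adjusted p = 1.47e-06), and Csrp3, a Z-disc protein (0.72 ± 0.16, adjusted p = 0.000988). Of 16 fast fiber genes 4 were higher, among them Mylpf, the fast regulatory light chain (0.57 ± 0.17, adjusted p = 0.00749), and Pfkm, muscle phosphofructokinase (0.26 ± 0.09, adjusted p = 0.0218), and 1 was lower, the fast myosin Myh2 (-0.66 ± 0.19, adjusted p = 0.00670), which is near the share of all genes for the higher calls. On the count scale the median was 0.29 for the slow and 0.14 for the fast list, against 0.06 for all genes. In summed TPM the slow list had a median of 6937 in controls and 7198 at 4 Hz, and the fast list 14395 and 14912. The part of transcript length in these list values was not tested.

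Cardiac and developmental contractile genes were higher at 4 Hz in 4 of 8 cases, against 27.5% of all genes, and lower in 0, among them the alpha myosin gene Myh6 (0.53 ± 0.12, adjusted p = 0.000839) and Myl4 (0.41 ± 0.12, adjusted p = 0.00483). From 4 to 10 Hz, 12 of 15 slow, 11 of 16 fast and 6 of 8 cardiac and developmental genes were lower and 0 higher, against 24.4% and 21.9% of all genes. Against control, 10 Hz gave 1 call in these lists, Myh2, named after its values were seen (log2 -1.07 ± 0.20, adjusted p = 0.0380).

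Of 26 regulators of fiber type, 5 were called higher and 10 lower at 4 Hz, where all genes also went both ways (27.5% and 23.9%). Myod1 and Myog, the E-box binding factors of myogenesis, fell by 1.75 ± 0.09 and 1.47 ± 0.07 on the log2 scale (adjusted p = 1.89e-13 and 1.54e-13), while Eya1, a transcriptional coactivator of early myogenesis, rose by 0.90 ± 0.12 (adjusted p = 1.38e-06) and Hdac5, a repressor of MEF2, by 0.49 ± 0.08 (adjusted p = 3.80e-05). At 1 Hz Myod1 and Myog were also lower (-1.42 and -1.34, adjusted p = 2.45e-11 and 1.23e-12). There 0 of 8 troponins were called, against 37.3% of all genes. At 10 Hz against 4 Hz, 10 of the 26 regulators were higher, Myod1 (1.57) and Myog (1.26) among them, against 21.9% of all genes. Another 5 were lower, against 24.4% of all genes, and 7 of 8 troponins were lower. The part of these regulators in the troponin values was not tested.

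Of 24 tested markers of other cells and of proliferation, 10 were called at 4 Hz, 6 higher and 4 lower, against 51.4% of all genes called in either direction. Of 4 tested cardiomyocyte markers 1 was higher at 4 Hz (Myh6) and 0 lower, with summed levels of 50.7 to 76.1 TPM in controls and 53.2 to 95.2 at 4 Hz. Of 6 smooth muscle markers 1 was higher (Smtn, 0.59 ± 0.11) and 1 lower (Acta2, -0.41 ± 0.12), and of 5 fibroblast markers 2 were higher, Dcn (0.43 ± 0.13) and Pdgfra (0.36 ± 0.11). Of 6 proliferation markers 1 was higher (Cdk1, 0.51 ± 0.13) and 3 lower, among them Ube2c and Ccnb1 (-1.06 ± 0.32). Of 12 myotube markers 1 was higher, Mylpf, and 0 lower. The 2 tested blood markers gave 1 call, Hba-a1 (0.90 ± 0.31), and the 1 tested neuron and Schwann cell marker gave 0 in edgeR. The tissues were grown from the C2C12 line alone, so these lists name marker genes and not cell types known to be present. The part of these genes in the troponin values was not tested.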

How the data were processed

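RNA of 24 tissues was sequenced, 6 per condition. The authors ran nf-core/rnaseq with STAR and Salmon on the Ensembl annotation of GRCm39, and deposited the estimated counts per gene without normalization, 19% of the nonzero ones not whole (tolerance 0.001). The TPM deposited by the authors are divided by transcript length and scaled per library. Per the study's methods, reads were also aligned by BWA and bedtools gave quality metrics. The submitters' processing notes list BWA 0.7.12-r1039 and bedtools 2.25.0, with mm10 and hg19, whose role is not given. The kit was directional per the study's methods, and strand use in counting is not given in the sources used here.

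Counts were rounded, filtered by filterByExpr (minimum count 10, total 15), scaled by TMM and fitted in edgeR 4.0.16 (R 4.3.3) with a robust quasi-likelihood model of all 24 libraries, a mean per condition. Genes were called at a Benjamini-Hochberg adjusted p under 0.05. The biological coefficient of variation was 14.8%. DESeq2 1.42.0 and limma 3.58.1 on log2(TPM + 1) were alternatives, with other scalings, filters, a replicate block and libraries left out. The fits were tested on simulated data. Shares of summed TPM were compared by two-sided exact permutation (scipy 1.17.1), adjusted over 24 tests. For the share fits without 1 library, adjustment was over the 12 tests that use its condition. GENCODE M39 gave positions and lengths, with 98.9% of gene identifiers found. RefSeq gave promoters.

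Named genes are all 8 troponins, at most the 2 called genes of each list with the smallest p at 4 Hz in each direction, the 2 genes most like each troponin by Pearson's r over libraries, neighbors and overlapping genes, with Rn18s-rs5 and the Myh2 value at 10 Hz added after values were seen. The troponin members and all lists were chosen with earlier results of these data known, so no list is independent evidence. No libraries held identical values.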

Additional observations from a re-analysis of the deposited data

Results flagged for a closer look

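Within conditions, 48 sets of 6 libraries were examined, 8 genes and 4 shares in 4 conditions, for a highest or lowest library whose gap to the next one exceeded Dixon's 95% limit for 6 samples. Chance marks about 1 in 20 sets. One set was marked: the lowest 4 Hz library of Tnni3, replicate 3, held 0.557 CPM, with the next at 1.10 CPM, a gap of 0.641 of the range.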

How the results depend on the processing

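The count of called troponins at 4 Hz against control, 5, became 2 without a filter on low counts (Tnni2 and Tnnt2), 0 on log2(TPM + 1) and 0 on log2(TPM + 0.1), and 1 with an absolute log2 fold change over 0.5 as well. It was 4 to 6 with 1 library left out. The 1 call at 10 Hz against 1 Hz became 0 without a filter, with only those groups in the fit, on both TPM scales, with the fold limit as well, and with a replicate block, and 0 to 2 with 1 library left out. At 10 Hz against 4 Hz the 7 calls became 4 on log2(TPM + 1) and 4 on log2(TPM + 0.1). The other alternatives, RLE and upper-quartile factors, a stricter filter and DESeq2 among them, kept these counts within 1.5 times. The causes were not tested.

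Fold changes changed sign on log2(TPM + 1) and log2(TPM + 0.1) for Tnnt1 and Tnnt3 at 4 Hz against control (-0.025 and -0.053 on both), for Tnnt2 at 10 Hz against 4 Hz (0.0083 on both) and for Tnni2 at 1 Hz against control (-0.021 on both). With 1 library left out, Tnnt2 at 10 Hz against control ran from -0.025 to 0.094, and Tnni3 at 10 Hz against 4 Hz from -0.10 to 0.30.

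For the slow share of troponin T at 10 Hz against control, the difference was -0.366 points on estimated counts, -0.861 with Tnnt2 in the denominator and -0.293 to 0.262 with 1 library left out. Against 1 Hz it was -0.140 with Tnnt2 in the denominator. The slow share of troponin I at 4 Hz against control lost its call on estimated counts (-1.92 points) and ran from -2.50 to -1.66 with 1 library left out. That at 10 Hz ran from 1.97 to 2.77 against 4 Hz and from -0.0106 to 0.682 against control. The slow share of troponin C at 10 Hz against 1 Hz lost its call on estimated counts (2.99 points) and ran from 2.45 to 3.60 with 1 library left out, and that at 4 Hz against control ran from -0.354 to 0.0758. The cardiac share of troponin T ran from 1.85 to 3.17 at 10 Hz against 1 Hz, from 2.28 to 2.97 at 10 Hz against 4 Hz and from -0.738 to 0.585 at 4 Hz against 1 Hz. The log2 ratio in place of the share changed no call. At 10 Hz against control, the slow share of troponin C and the cardiac share of troponin T held their calls in every alternative read at an adjusted p. Their smallest differences with 1 library left out were 2.15 and 3.13 points. In the exact sign-flip permutation test of pairs, both had an unadjusted p of 0.03125. That is the smallest p that 6 pairs can give, and it was not adjusted over the share tests.

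Replicate numbers did not pair the samples: of 36 pairs with the same number, 3 had a correlation of deviations over 0.1, with a median of -0.0203, and 4 correlated best with their own number. With a replicate block, edgeR called 5 troponins at 4 Hz against control and 7 at 10 Hz against 4 Hz, as without it. In the exact sign-flip permutation test of pairs, read at an unadjusted p, 3 shares lost their call at p = 0.0625: the slow share of troponin I at 4 Hz against control (-2.17 points) and at 10 Hz against 4 Hz (2.48), and the slow share of troponin C at 10 Hz against 1 Hz (2.96). Of 300 counts over the partner lists, 71 moved by more than 1.5 times. Depth limits Tnni3, which had at most 23 counts in a library.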
